A study of Mus musculus with 32 samples.

Results

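The genes described here ran opposite to Hes7, a core gene of the mouse segmentation clock, in each of 2 time courses of presomitic mesoderm (PSM) made in culture. They were chosen from the same libraries in which they are described. Counts were scaled by the column totals to CPM, the usual depth-scaled count, and taken as log2(CPM + 0.5), a linear time trend was removed within each course, and genes with a mean of at least 5 CPM over the 32 libraries and a Pearson r with Hes7 of -0.5 or lower in both courses were kept. The count table lists 21886 genes; 9986 of them reached that mean, and 249 of these (2.49%) met both limits. A set of 8 genes that is mostly Wnt targets and PSM regulators was put aside by name, which took out the 4 of them that had met the rule (Axin2, Sp8, Msgn1 and Dennd2c) and left 245 genes. Dkk1, Sp5, Apcdd1 and Tnfrsf19 were also on that list and had not met the rule. Dkk1 missed only the level limit, with a mean of 4.445 CPM, and had r = -0.755 in Ex4 and -0.821 in Ex5. The others missed the limit of r in Ex4 (Sp5), in Ex5 (Tnfrsf19) or in both courses (Apcdd1).

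The cells came from 1 mouse epiblast stem cell (EpiSC) line that carries a luciferase reporter for Hes7, and the libraries fall into a course named Ex4, with 16 libraries from 155 to 405 min, and a course named Ex5, with 16 libraries from 165 to 425 min. All dishes of both courses had the same treatment: a medium with SB431542 (10 µM), an inhibitor of Activin and Nodal type TGF-beta receptors, LDN193189 (250 nM), an inhibitor of BMP receptors, CHIR99021 (10 µM), a GSK3 inhibitor that activates Wnt signalling, and the growth factor bFGF (20 ng/ml), followed after 30 h by the same medium with 1 µM CHIR99021. Each library is a separate dish frozen at its own time, so no time point of a course has a replicate, and error is the scatter of libraries around the fitted curves. No untreated group is among these samples, and the moment from which minutes are counted is not given in the labels. The design text calls the cells entrained and oscillating.

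The segmentation clock is a set of genes in the PSM whose transcription rises and falls with each new somite. Hes7 encodes a basic helix-loop-helix repressor that acts on its own promoter and on targets such as Lfng, and the delay of that feedback gives the cycle. Genes of the Notch and FGF pathways are known to cycle with Hes7 in mouse PSM, and several Wnt targets, Axin2 first among them, are known to cycle out of phase with it.

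Hes7 itself ranged from 126 to 290 CPM in Ex4 (median 221) and between 153 and 431 CPM in Ex5 (median 271). A cosine with 1 common period of 136 min put its maxima in Ex4 at 212 and 348 min, and those of Ex5 at 237 and 373 min, with a fitted peak-to-trough ratio of 2.00. Column totals ran from 19257945 to 29528175 counts in Ex4 and from 16132024 to 28586704 counts in Ex5. All 9 PSM markers other than Hes7 (T, Tbx6, Msgn1, Dll1, Dll3, Rspo3, Cdx2, Wnt3a and Fgf8) were expressed, with a summed level of 2999 to 3470 CPM in Ex4 and 3396 to 3948 CPM in Ex5. The summed markers of neural, endodermal, other mesodermal and somite cells stayed at or under 26.4 CPM in each library, and 3 of 5 neural, 2 of 4 endodermal, 1 of 7 other mesodermal and 2 of 5 somite markers averaged 1 CPM or more. Those of the pluripotent epiblast summed to 31.7 to 120 CPM, mostly Pou5f1 (48.0 CPM on average) and Sox2 (20.5 CPM). No marker was at 0 in every library. In bulk samples fewer cells of a type and less RNA per cell cannot be told apart.

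The rule selected weak, shared movements. Separately, 870 genes (8.71%) had an r of -0.5 or lower in Ex4 and 860 (8.61%) in Ex5, and the 249 in both are 28.6% of the former and 29.0% of the latter. By comparison 312 genes had an r of 0.5 or higher in both courses (called genes following Hes7 below). That count includes Hes7 itself, by definition, and the luciferase transcript of its reporter. Another 10 genes passed 0.5 in size with opposite signs. The median r of the 245 genes was -0.60 in Ex4 and -0.61 in Ex5, 66 genes were at or under -0.6 in both and 6 at or under -0.7 in both. Just inside the limit were Dkc1 (r = -0.501 in Ex4 and -0.616 in Ex5) and Zfp869 (-0.501 and -0.636), and just outside it Rnf4 (-0.690 and -0.4995) and Vps35 (-0.4993 and -0.613). These r values made the selection and carry no test.

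**Figure D1:**
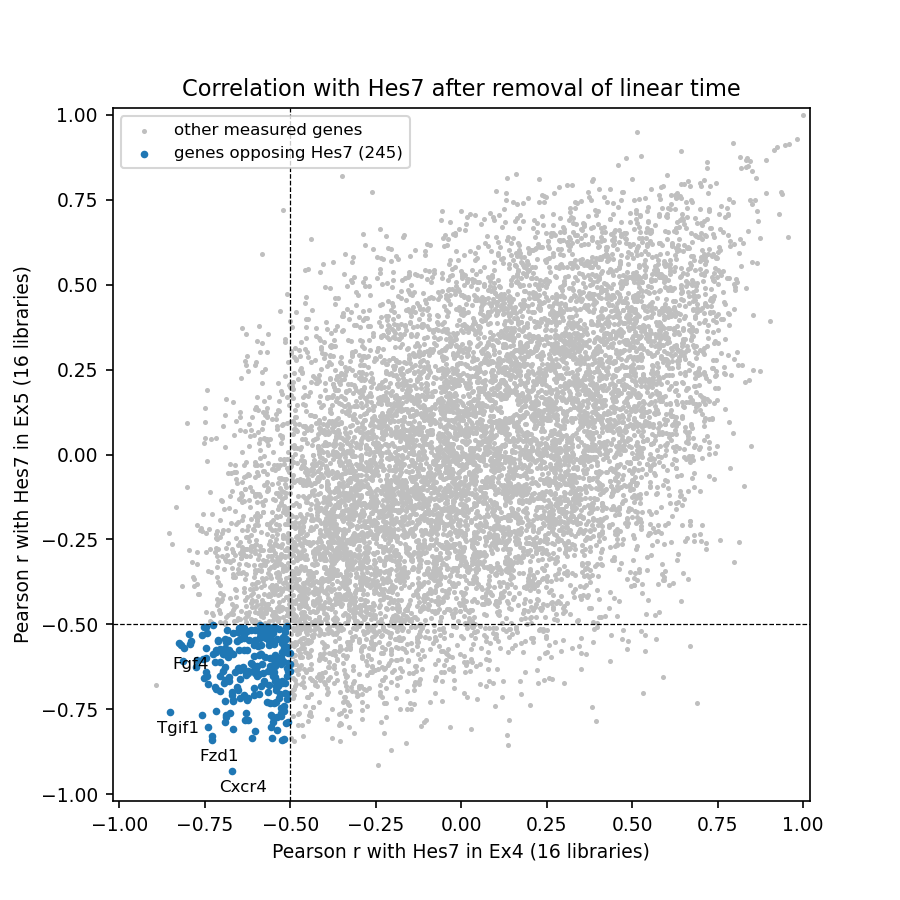
Pearson r with Hes7 in Ex4 (x axis) and in Ex5 (y axis) for each gene with a mean of at least 5 CPM, after removal of linear time, over 16 libraries a course. Blue points are the 245 genes opposing Hes7, inside the dashed lines at -0.5, with Cxcr4 lowest in Ex5 (-0.93) and Tgif1 lowest in Ex4 (-0.85). The point at the upper right corner is Hes7 itself.

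The fitted peak-to-trough ratio over the Hes7 cycle ran from 1.03 to 1.33 among the 245 genes, with a median of 1.09, against a median of 1.04 over all 9986 genes. It was under 1.1 for 144 genes, from 1.1 to under 1.2 for 89 and 1.2 or more for 12. The deviations of a gene from its linear trends, which include its movement with Hes7, had a median SD of 0.087 in log2 units. Counting error alone would give 0.037. The genes were well covered: their median level was 68.7 CPM (45.7 CPM over all 9986 genes), they ranged from 5.20 to 2017 CPM, and the smallest count of any of them in any library was 75. The peaks fell 53.4 to 83.8 min after the peak of Hes7, with a median of 65.0 min, where the Hes7 trough is at 68 min. Of the 245 genes 170 peaked before the Hes7 trough and 75 after it, and the peak times fitted to each course alone differed by a median of 8.80 min. The timing follows from the selection and is a description.

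**Figure D2:**
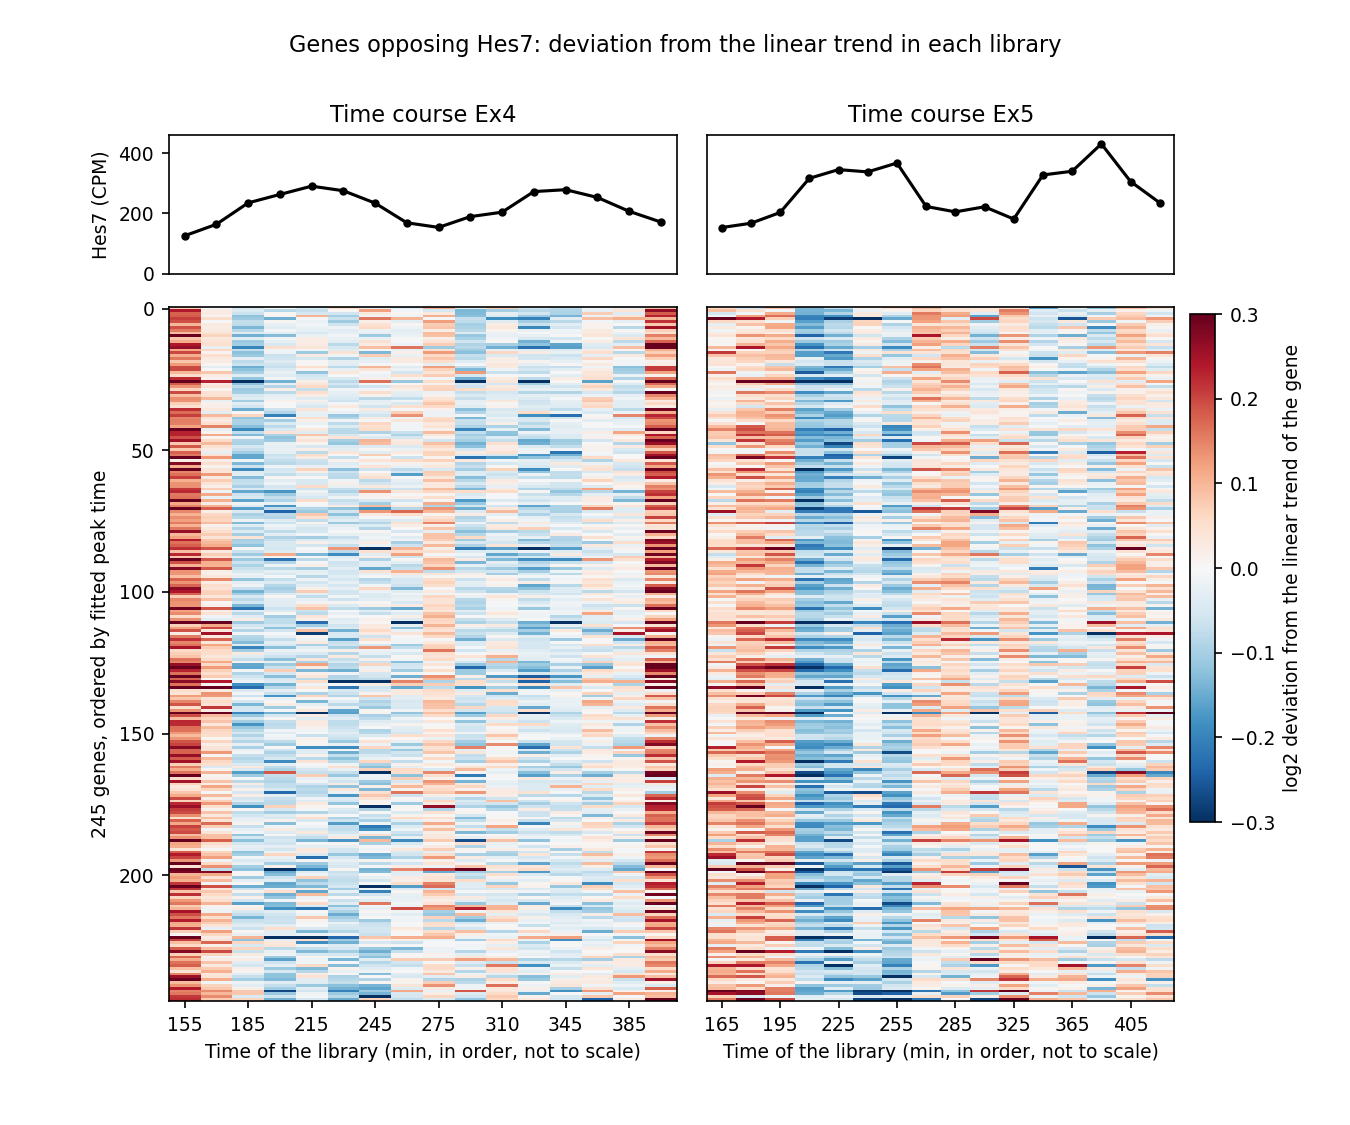
Hes7 level in CPM (upper panels) and, below, the log2 deviation of each of the 245 genes from its own linear trend in each library of Ex4 (left) and Ex5 (right), red above and blue below the trend. Columns are libraries in time order. The libraries at 155 and 405 min of Ex4 are red in nearly every row, and those at 210 and 225 min of Ex5 are blue in nearly every row.

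The libraries did not contribute evenly. At 155 min of Ex4, the lowest Hes7 value of that course, 245 of the 245 genes stood above their own line, and at 405 min of Ex4 233 did. At the middle Hes7 trough 198 stood above it in Ex4 (275 min) but 91 in Ex5 (305 min). The libraries nearest the first fitted maximum of Hes7 had 90 in Ex4 (215 min) and 74 in Ex5 (240 min). In Ex5 1 gene stood above its line at 210 min and 3 did at 225 min, before that maximum, and at the highest Hes7 value (385 min, 431 CPM) 59 did. The second Hes7 maximum had 39 in Ex4 (345 min) and 131 in Ex5 (365 min). Over all measured genes the share above the line lay between 43.4% and 55.7% in every library. At 365 min of Ex5 it was 49.7%, close to the 53.5% of the members. The deviations counted here are those that made the selection, so the counts are descriptions.

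Tgif1, which encodes a homeodomain corepressor that limits TGF-beta and retinoic acid responses, had the most negative mean r. It lies on chromosome 17 from 70844205 to 70853546 on the minus strand (positions here are those of GENCODE M21, which uses the mm10 assembly, GRCm38). Its level in Ex4 went from 163 CPM at the first Hes7 trough (155 min) to 136 CPM at the first peak (215 min), 147 CPM at the middle trough (275 min), 140 CPM at the second peak (345 min) and 139 CPM at 405 min. In Ex5 the same moments (165, 240, 305, 365 and 425 min) gave 144, 112, 120, 112 and 119 CPM. Here and below, these moments are the libraries nearest the fitted Hes7 troughs and peaks. The fitted troughs at 144 and 416 min of Ex4 and 441 min of Ex5 lay outside the sampled times. In Ex5 Hes7 was lower at 325 min (182 CPM) than at 305 min (222 CPM), and higher at 385 min (431 CPM) than at 365 min (340 CPM). Each value at a Hes7 trough was above the value at the preceding Hes7 peak in Ex5, while in Ex4 the last trough library did not exceed the second peak. The fitted ratio was 1.12, with r = -0.85 in Ex4 and -0.76 in Ex5.

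Cxcr4, the receptor for the chemokine Cxcl12 and a guide of migrating mesoderm and endoderm cells, had the most negative r of all 245 genes in Ex5 (-0.93; -0.67 in Ex4) and a fitted ratio of 1.33. It lies on chromosome 1 from 128588199 to 128592293 on the minus strand. It went from 27.9 CPM at the first Hes7 peak of Ex4 to 42.9 CPM at the middle trough and stood at 43.0 CPM at the second peak and 51.4 CPM at 405 min, on top of a rising trend. In Ex5 it went from 38.9 CPM at the first trough to 30.1, 44.8, 40.5 and 49.5 CPM at the following moments. In Ex5 each trough library was higher than each peak library next to it.

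Fzd1, a Frizzled receptor for Wnt ligands, was the only member among 32 measured Wnt ligands, receptors and cascade genes. It lies on chromosome 5 from 4753839 to 4758035 on the minus strand, and had r = -0.73 in Ex4 and -0.84 in Ex5 with a fitted ratio of 1.24. At the 5 moments it gave 61.3, 50.6, 66.3, 55.0 and 66.4 CPM in Ex4 and 72.2, 56.6, 69.2, 57.5 and 65.0 CPM in Ex5. The trough libraries were above the neighbouring peak libraries at each step in both courses. Of the Wnt targets and feedback genes (22 measured) none is among the 245 once Axin2 and Sp8 are put aside.

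The promoters of Tgif1, Cxcr4, Fzd1 and Farsb are printed because these are the first genes by mean r with a RefSeq promoter entry that could be shown, and a repressor such as Hes7 acts at promoters. Each is 300 bases of RefSeq sequence on GRCm38.p6, from 250 bases before to 50 after the annotated start, read 5′ to 3′ on the strand of the gene. They are chr17:70853483-70853782 (minus strand, the first of 5 starts listed), chr1:128592250-128592549 (minus), chr5:4758167-4758466 (minus) and chr1:78488848-78489147 (minus). Capitals mark letters that match, on either strand, an N-box (CACNAG), an E-box (CACGTG), the core of an RBPJ site (TGGGAA) or a GC box (GGGCGG).
Tgif1: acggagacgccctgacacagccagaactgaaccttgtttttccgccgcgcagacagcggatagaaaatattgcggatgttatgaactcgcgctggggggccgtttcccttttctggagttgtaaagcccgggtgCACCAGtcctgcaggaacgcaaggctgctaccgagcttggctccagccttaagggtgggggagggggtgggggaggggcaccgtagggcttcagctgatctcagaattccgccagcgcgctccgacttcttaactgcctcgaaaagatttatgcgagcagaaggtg
Cxcr4: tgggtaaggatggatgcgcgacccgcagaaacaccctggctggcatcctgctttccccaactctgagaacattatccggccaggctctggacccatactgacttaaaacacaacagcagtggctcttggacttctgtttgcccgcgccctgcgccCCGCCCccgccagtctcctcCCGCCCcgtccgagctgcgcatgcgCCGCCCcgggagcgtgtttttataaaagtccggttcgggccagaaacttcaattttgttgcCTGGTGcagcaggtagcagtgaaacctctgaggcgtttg
Fzd1: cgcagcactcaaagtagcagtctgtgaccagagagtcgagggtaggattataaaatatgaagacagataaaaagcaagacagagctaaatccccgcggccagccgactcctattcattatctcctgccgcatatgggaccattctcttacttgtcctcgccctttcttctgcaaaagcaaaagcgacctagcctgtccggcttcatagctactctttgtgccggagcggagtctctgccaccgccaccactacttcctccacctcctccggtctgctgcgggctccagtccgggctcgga
Farsb: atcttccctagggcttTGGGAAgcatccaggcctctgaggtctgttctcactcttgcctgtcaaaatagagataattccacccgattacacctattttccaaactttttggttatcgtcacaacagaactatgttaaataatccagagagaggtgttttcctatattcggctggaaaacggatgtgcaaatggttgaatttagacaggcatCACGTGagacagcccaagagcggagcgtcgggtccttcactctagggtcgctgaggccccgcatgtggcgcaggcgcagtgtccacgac
The Tgif1 window holds 1 N-box, the Cxcr4 window 3 GC boxes and 1 N-box, the Farsb window 1 RBPJ core and 1 E-box, and the Fzd1 window none of the motifs searched. The RefSeq start of Fzd1 lies upstream of the GENCODE gene given above, so its whole window is outside that gene. Of the 245 genes 201 had an entry in the RefSeq table, as had 8020 of the measured genes. The N-box was in 37.3% of these 201 promoters and in 39.2% of all 8020, the E-box in 9.45% and 11.1%, and the class C site (CACGCG), a form that Hes proteins are known to bind, in 10.9% and 19.5%. The RBPJ core was in 24.4% against 22.4%, the ETS core (CCGGAAG) in 22.9% against 20.8%, the short cAMP response element (TGACGT) in 17.4% against 13.0% and the GC box in 62.2% against 69.4%. The TCF/LEF forms CTTTGAT and CTTTGAA were in 3.98% and 6.47% of the member promoters and in 2.32% and 3.45% of all. The class C site and the GC box, both rich in G and C, were less frequent than in all promoters, and the median GC content of the member promoters was 60.3% against 62.0%; the genes following Hes7 had 64.3%, with the class C site in 24.4% and the GC box in 76.5%. These shares are descriptions of letters in a window and do not mark binding.

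Among signalling genes fixed in lists, Fgf4 was the only member of 29 measured FGF and ERK targets and feedback genes. It encodes an FGF ligand of the primitive streak and tailbud and lies on chromosome 7 from 144847367 to 144865243. Its level ran from 48.4 to 82.6 CPM in Ex4 (median 63.2) and between 40.0 and 66.0 CPM in Ex5 (median 52.9), with r = -0.81 and -0.57 and a fitted ratio of 1.19. The clearest bump was at the middle Hes7 trough of Ex5, where it reached 66.0 CPM between 53.1 CPM at the first Hes7 peak and 43.0 CPM at the second. Flrt3, a membrane protein that binds FGF receptors, ran from 35.7 to 57.9 CPM in Ex4 and between 38.7 and 48.8 CPM in Ex5 (r = -0.67 and -0.81). Of 30 measured Notch pathway and Hes/Hey genes 0 were members, and 9 were among the genes following Hes7, a set that includes Hes7 itself.

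**Figure D3:**
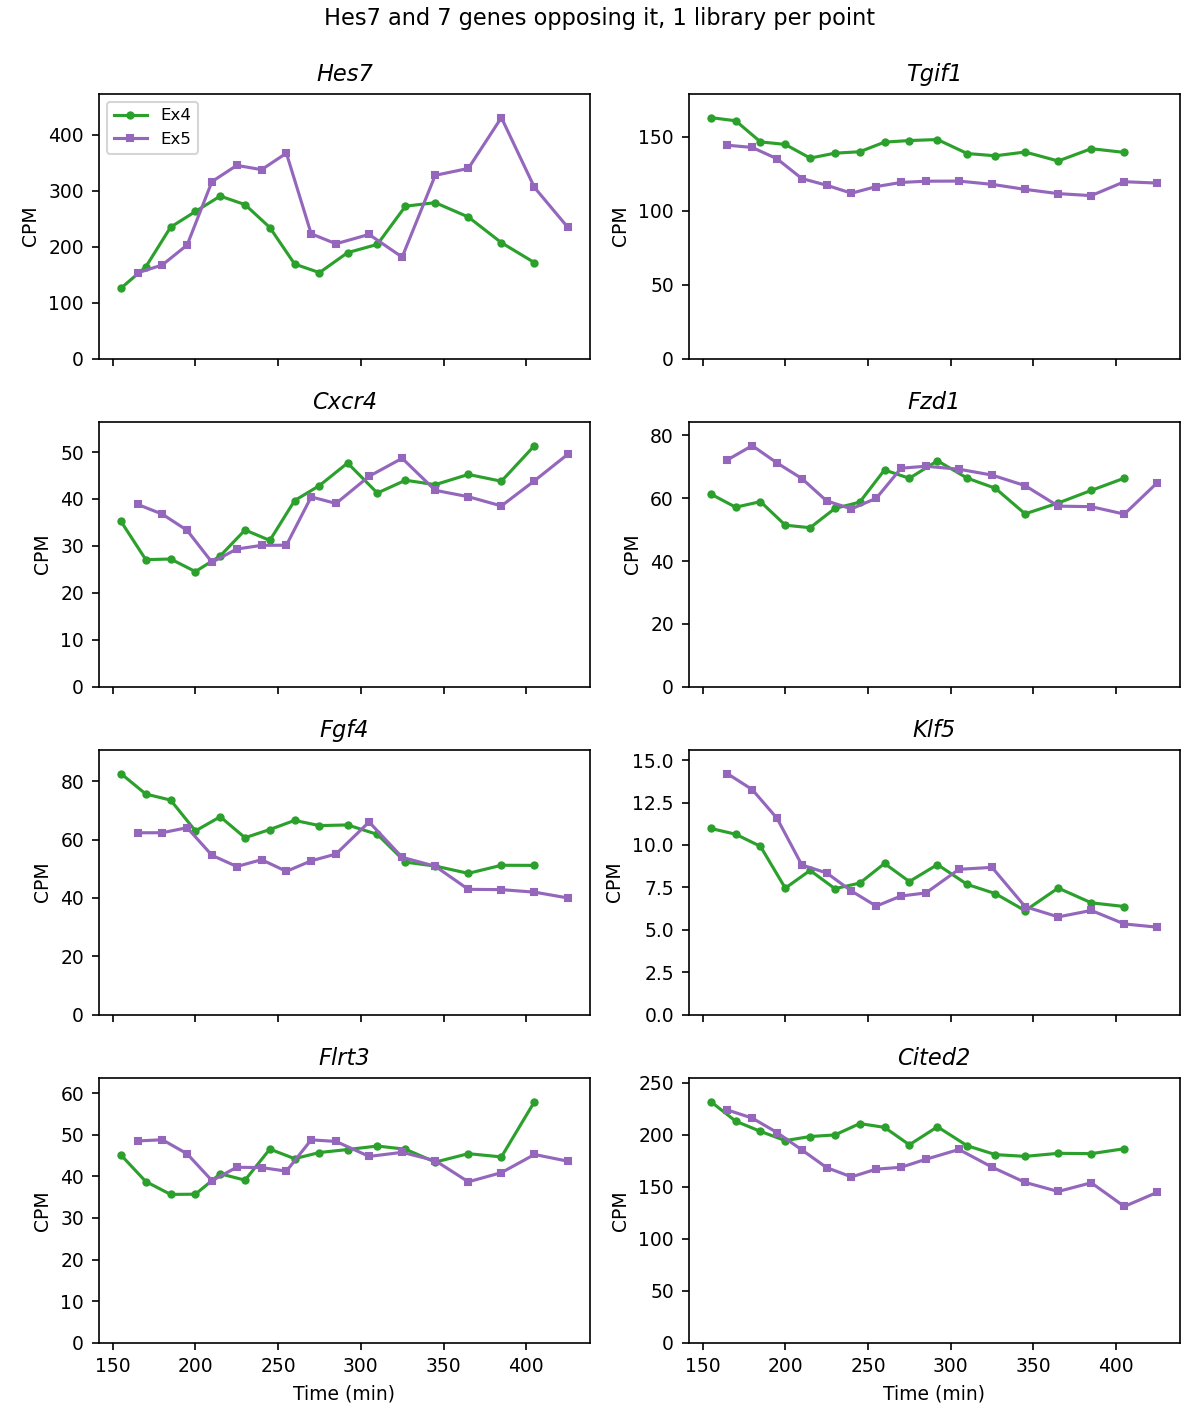
Level in CPM (y axis, from 0) against time in min (x axis) for Hes7 and for Tgif1, Cxcr4, Fzd1, Fgf4, Klf5, Flrt3 and Cited2, with 1 point per library, green circles for Ex4 and purple squares for Ex5. Hes7 has a fitted peak-to-trough ratio of 2.00, and Fzd1 moves between 50.6 and 76.7 CPM with the opposite phase, and Fgf4, Klf5 and Cited2 swing around a falling trend.

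The remaining 9 of the 12 genes with the most negative mean r are housekeeping enzymes, adaptors and surface proteins; 1 predicted gene model, 2700062C07Rik, ranked among them and is treated with the slopes below. Asnsd1, which carries an asparagine synthetase domain, ran from 77.1 to 108 CPM in Ex4 and between 72.4 and 96.0 CPM in Ex5, with a fitted ratio of 1.15. Farsb, the beta subunit of phenylalanyl-tRNA synthetase, ran from 108 to 131 and from 106 to 127 CPM with a ratio of 1.09. Stt3a, a catalytic subunit of the oligosaccharyltransferase that adds N-glycans, ran from 188 to 244 and from 180.0 to 230.3 CPM with a ratio of 1.12.

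Ifitm2, an interferon-induced membrane protein, ran from 42.4 to 72.0 CPM in Ex4 and between 46.9 and 67.4 CPM in Ex5 with a ratio of 1.199; the Ifitm genes are close paralogs, so its count is uncertain. Wac, an adaptor linked to histone H2B ubiquitination, ran from 85.6 to 117 and from 83.5 to 107 CPM. Cops3 and Cops4, subunits of the COP9 signalosome that removes Nedd8 from cullins, had ratios of 1.103 and 1.078, and Pcca, the alpha subunit of propionyl-CoA carboxylase, had 1.13. In all of these the 2 courses overlapped in level.

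Of the 6 largest fitted ratios, 1 is that of Cxcr4 and the other 5 belonged to genes with lower levels. Gm45871, Klf5, Gm4924, Sgk1 and Gm15446 had ratios of 1.33, 1.29, 1.27, 1.26 and 1.26 at mean levels of 6.69, 8.12, 6.87, 26.3 and 7.78 CPM. Klf5 encodes a zinc finger factor of pluripotent and epithelial cells, and Sgk1 a kinase induced by serum and glucocorticoids. The Gm entries are predicted gene models, and reads of Gm15446 and of the Zfp genes below may be shared with near copies.

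The lists of cell biological groups held 0 to 4 members each, where 2.49% of all measured genes met the rule. The median r of each whole list lay between -0.36 and 0.32 in both courses, against 0.0051 and -0.019 over all measured genes. Of 32 measured ribosome biogenesis genes 4 were members: Nop58 of the box C/D snoRNPs, the pseudouridine synthase gene Dkc1, Utp4 of the small subunit processome and the RNA helicase gene Ddx18. Of 32 chromatin regulators 2 were members, the H3K27 demethylase gene Kdm6a and Eed of the Polycomb complex that writes the same mark. Pcna, the replication clamp, was the only one of 22 G1/S genes, Uqcrc2 of respiratory complex III the only one of 22 oxidative phosphorylation genes, and Nsdhl the only one of 18 cholesterol synthesis genes. Asns, asparagine synthetase, was the only one of 15 stress and amino acid response genes. Their ratios were small, from 1.03 for Dkc1 to 1.136 for Kdm6a; Kdm6a ran from 46.2 to 63.1 CPM in Ex4 and between 45.4 and 67.7 CPM in Ex5. Pcna reads may be shared with a pseudogene copy. None of 22 G2/M, 30 splicing, 32 ribosomal protein, 17 glycolysis or 30 cytoskeleton genes was a member. With lists this short and so low a share over all genes, these counts are descriptions only. Of the members named in this paragraph only Kdm6a met the rule under the GC correction described below.

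Several complexes contributed more than 1 subunit; these groups were put together after the members had been seen and are descriptions only. The alpha ring of the 20S proteasome had 4 of its 7 measured genes (Psma1, Psma3, Psma4 and Psma6), with a median r over all 7 of -0.56 in Ex4 and -0.59 in Ex5. The beta ring had 0 of 7, with medians of 0.22 and -0.31. The cytosolic chaperonin had 3 of 7 (Tcp1, Cct4 and Cct8), the COPI vesicle coat 3 of 8 (Copa, Copb1 and Copg2), the COP9 signalosome 2 of 9, the Integrator complex 3 of 14 (Ints4, Ints12 and Ints14) and the origin recognition complex 2 of 6 (Orc3 and Orc5). Under the GC correction described below Psma1, Psma3, Psma4, Tcp1, Cct4, Cct8, Copg2, Ints4, Ints12 and Orc3 missed the rule. Psma6, Copa, Copb1, Cops3, Cops4, Ints14 and Orc5 still met it, and of these subunits only Ints14 met it in every setting compared below. Genes named Zfp gave 13 members of 268 measured. The swings were small: Psma6 ran from 194 to 235 CPM in Ex4 and between 181 and 214 CPM in Ex5 with a ratio of 1.07, and Tcp1 from 766 to 907 and from 771 to 873 CPM with 1.06.

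The members lay on all autosomes and the X chromosome, and 7 pairs lay within 50 kb of each other, among them Copb1 and Psma1 (9895 bases apart on chromosome 7) and Stt3a and Ei24 (11480 bases apart on chromosome 9). Itfg1 and Phkb start 38 bases apart on opposite strands of chromosome 8. The libraries were made with a stranded kit, and the strand setting of the counting is not given in the sources used here.

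Most of the 245 genes had transcripts of low GC content. The longest transcript of a member had a median GC content of 44.1% (quartiles 41.9% and 47.0%), against 49.7% over the 9981 measured genes with a value and 56.0% over the 311 genes following Hes7 with one. Of the 245 genes 216 lay under the overall median, and of the genes following Hes7 35 did. Fzd1 (55.7%), Cited2 (54.5%) and Ifitm2 (54.4%) were among the members above it. Transcript length was alike, with a median of 3472 bases against 3567 bases over all measured genes. The slope of gene deviations on GC content within each library moved with the members: over 16 libraries its r with the mean standardised deviation of the 245 genes was -0.79 in Ex4 and -0.73 in Ex5, and its r with Hes7 was 0.42 and 0.48. These libraries share the dishes, depth and base composition behind both values. The member deviations are those that made the selection, and the GC slope itself moved with Hes7. The GC content of the members is therefore not independent of the rule, and these values are descriptions. Values under a GC correction are given below, and the part of the GC slope in the result was not tested. The mitochondrial share of counts had an r with the member mean of 0.80 in Ex4 and 0.37 in Ex5, and the total count 0.17 and -0.45. The summed PSM markers other than Hes7 had an r of -0.88 in Ex4 and -0.94 in Ex5 with the member mean; those of the pluripotent epiblast had -0.45 and -0.34, neural markers -0.42 and -0.29, endodermal markers 0.044 and -0.51, other mesodermal markers 0.075 and 0.51 and somite markers 0.13 and -0.12. Of the summed PSM markers Dll1, Cdx2 and Wnt3a were among the genes following Hes7, and Msgn1 had met the opposing rule. The r of that sum is thus tied to the selection and is a description. The part of these markers in the result was not tested.

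**Figure D4:**
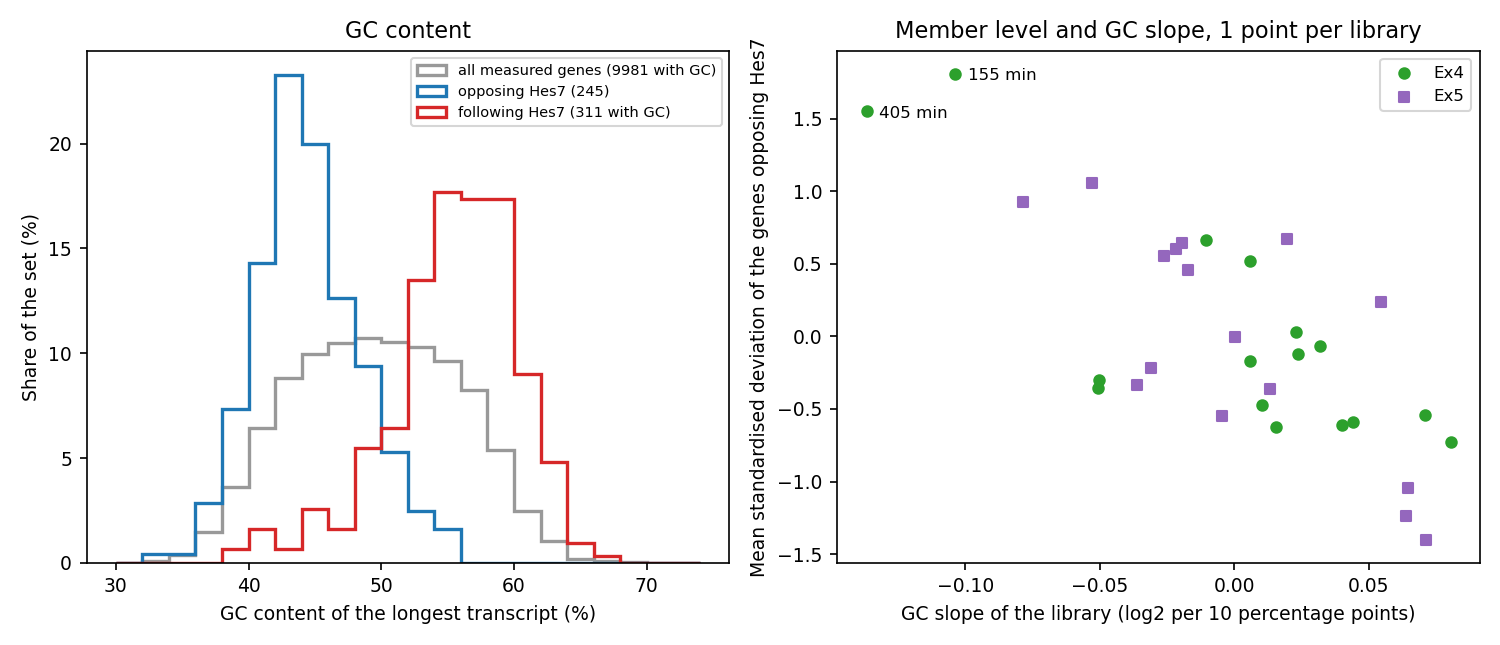
Left, distribution of transcript GC content (x axis, percent) as a share of each set (y axis, percent) for all measured genes, the 245 genes opposing Hes7 and the genes following it. Right, mean standardised deviation of the 245 genes (y axis) against the GC slope of the library (x axis, log2 per 10 percentage points), 1 point per library, with 155 and 405 min of Ex4 at the upper left.

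The list changed with the processing. After the log2 values were centred within 20 bins of GC content, a correction chosen after seeing the data, 164 genes met the rule, among them 106 of the 245. Without the Ex4 libraries at 155 and 405 min 93 genes met it, among them 74 of the 245, and with both changes 86 did, among them 52. After both changes the median r of the 245 genes in Ex4 was -0.44. With no time trend removed 272 genes met the rule, among them 159 of the 245. A quadratic time trend kept 127 of the 245 and a Spearman correlation 108, close to the number kept with the GC correction. The causes of these losses were not tested.

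A group of 31 genes met the rule in each of 40 settings (2 other library scalings, 2 other pseudocounts, a quadratic time trend, a Spearman correlation, the GC correction, the 2 Ex4 libraries left out together, and each of the 32 libraries left out in turn). They are Tgif1, Cxcr4, Fzd1, 2700062C07Rik, Asnsd1, Farsb, Stt3a, Wac, Pcca, Ube4a, Mkks, Rnd3, Fads1, Armc8, Atp1b3, Mios, Mllt10, Plp2, Zfp277, Cited2, Nit2, Ints14, S100a11, Zdhhc16, Klf5, Cnot8, Cep76, Zfr, Tex10, Zfp882 and Pms2. With no time trend removed, which is not among the 40, 22 of the 31 met the rule; Cxcr4, Klf5, Rnd3, S100a11, Fads1, Cnot8, Mllt10, Ube4a and Zdhhc16 did not. With the GC correction and the 2 Ex4 libraries left out together 27 met it, and Atp1b3, Cited2, Fads1 and Pms2 did not. The fitted ratios of the 31 ran from 1.04 to 1.33 (median 1.12), and their median GC content was 46.1% against 43.9% for the other members. Among them Cited2, which encodes a coregulator that binds CBP and p300, ran from 179 to 232 CPM in Ex4 and between 131 and 224 CPM in Ex5. Rnd3, an atypical small GTPase that loosens actin fibres, ran from 22.1 to 30.8 and from 20.1 to 30.1 CPM with a ratio of 1.22. Fgf4 met the rule in 39 settings and missed it under the GC correction, and Ifitm2 and Flrt3 also met it in 39 and missed it without the 2 Ex4 libraries.

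The rule removed linear time, so the trend over each course was not used to choose the genes and could be tested. With edgeR's quasi-likelihood model and Benjamini-Hochberg adjustment over the 11772 genes that reached 1 CPM in 16 or more libraries, 121 of the 245 genes had a mean slope of the 2 courses with an adjusted p under 0.05, against 53.2% of all genes tested. Of these 39 rose and 82 fell, where 26.8% of all genes tested rose and 26.3% fell, and the median slope was -0.022 log2 per 100 min against -0.0011 over all genes tested. The slopes were small: 26 of the fallers and 11 of the risers reached 0.1 log2 per 100 min. Slopes past that limit were counted for the members alone, as a description. Under the GC correction the split turned to 79 rising and 56 falling, with 32.1% and 23.9% over all genes tested, so no direction is given for the 245 genes as a group. In Ex4 alone 57 genes were called (26 rising and 31 falling, against 17.7% and 14.5% of all genes tested in that course) and in Ex5 alone 99 (26 and 73, against 24.9% and 22.3%).

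Sgk1 fell most. It went from 37.0 CPM at 155 min to 24.97 CPM at 405 min in Ex4 and from 47.8 CPM at 165 min to 13.9 CPM at 425 min in Ex5, a mean slope of -0.41 ± 0.026 log2 per 100 min (SE, adjusted p = 8.29e-16, edgeR). Klf5 fell from 11.0 to 6.38 CPM in Ex4 and between 14.2 and 5.16 CPM in Ex5 (-0.31 ± 0.034, adjusted p = 1.29e-09, edgeR). S100a11, a calcium-binding S100 protein, fell from 92.2 to 58.6 CPM and from 89.9 to 55.6 CPM (-0.24 ± 0.016), and Zfp869 from 29.7 to 24.0 CPM and from 33.5 to 17.2 CPM (-0.21 ± 0.023). In each of the 4 genes the first library of a course was higher than its last one in both courses.

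Cxcr4 rose most, with a mean slope of 0.32 ± 0.029 log2 per 100 min (SE, adjusted p = 1.22e-11, edgeR). It went from 35.2 CPM at 155 min to 51.4 CPM at 405 min in Ex4 and from 38.9 to 49.5 CPM over Ex5, with its lowest values at 200 min (24.5 CPM) and 210 min (26.5 CPM). Slc44a2, a choline transporter-like protein, rose from 36.0 to 52.2 CPM and from 35.1 to 55.8 CPM (0.26 ± 0.017). 2610301B20Rik rose by 0.17 ± 0.029 and Exoc6b, an exocyst subunit, by 0.16 ± 0.019 log2 per 100 min.

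Of the signalling genes Fgf4 fell by 0.20 ± 0.020 log2 per 100 min (SE, adjusted p = 1.26e-10, edgeR), as did Tgif1 with a smaller slope (-0.056 ± 0.013). In their lists, 10 of 32 tested FGF and ERK genes rose and 10 fell, and 5 of 13 BMP and TGF-beta target genes rose and 4 fell. Flrt3 had a called mean slope of 0.072 ± 0.020, made of unlike slopes in the 2 courses (below), and Fzd1 had a mean slope of 0.022 ± 0.018 that was not called; of the 35 tested Wnt ligand, receptor and cascade genes 9 rose and 6 fell. Among the other listed members Nsdhl (0.13 ± 0.018) and Utp4 (0.061 ± 0.015) rose, Asns (-0.14 ± 0.015), Kdm6a (-0.081 ± 0.025), Pcna (-0.074 ± 0.017) and Eed (-0.064 ± 0.016) fell, and Dkc1, Ddx18 and Uqcrc2 were not called. In the tested lists, 11 of 18 cholesterol synthesis genes rose and 2 fell, and 1 of 20 stress and amino acid response genes rose and 9 fell. Of 22 G1/S genes 5 rose and 8 fell, of 32 chromatin regulators 10 and 5, and of 32 ribosome biogenesis genes 11 and 4. Nop58 was called (-0.037 ± 0.015, adjusted p = 0.0370, edgeR), but its slope turned to 0.0061 (adjusted p = 0.696) with the GC correction. In Ex4 alone Tgif1, Kdm6a, Utp4 and Nop58 were not called, and in Ex5 alone Eed, Flrt3 and Nop58 were not.

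The slopes of the 2 courses were then compared. They differed for 29 of the 245 genes (11.8%, adjusted p under 0.05, edgeR), against 15.6% of all genes tested. The slope was lower in Ex5 for 27 members (11% of the 245) and higher for 2 (0.816%). Over all genes tested 9.04% were lower and 6.57% higher. The share of members with a lower slope was thus close to that over all genes. Of the 29 genes 10 had a positive slope in Ex4 and a negative one in Ex5, and 16 had negative slopes in both, steeper in Ex5. These patterns were counted for the members alone, so they are descriptions. The median difference over the 245 genes was -0.025 log2 per 100 min, against 2.5e-05 over all genes tested. The GC correction gave 36 lower and 3 higher, against 10.9% and 8.8% of all genes tested. Leaving out the Ex4 library at 155 min gave 41 lower and 2 higher, 43 in all, against 8.73% and 6.51%.

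Sgk1 had the largest difference, with slopes of -0.21 ± 0.035 in Ex4 and -0.62 ± 0.036 in Ex5 (adjusted p = 3.26e-07, edgeR). Itgb8, the integrin subunit that releases latent TGF-beta, had 0.12 ± 0.039 in Ex4 and -0.22 ± 0.039 in Ex5 (adjusted p = 1.88e-05, edgeR): it ended Ex4 at its highest value there (37.8 CPM at 405 min) and Ex5 at 20.8 CPM. 2700062C07Rik went from 22.3 to 15.9 CPM in Ex4 and between 28.4 and 14.1 CPM in Ex5, with slopes of -0.11 ± 0.035 and -0.32 ± 0.034. Fzd1 (0.092 ± 0.024 and -0.048 ± 0.023) and Flrt3 (0.16 ± 0.028 and -0.012 ± 0.027) also had a lower slope in Ex5. Klf5 had slopes of -0.21 ± 0.046 and -0.40 ± 0.046 (adjusted p = 0.0418, edgeR), a call lost in several settings given in the closing section. The 2 genes with a higher slope in Ex5 were Spata7, a ciliary protein gene (0.015 ± 0.033 and 0.21 ± 0.033), and Tubgcp5 of the gamma-tubulin complex (0.015 ± 0.019 and 0.094 ± 0.018), whose call was also lost in several settings.

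**Figure D5:**
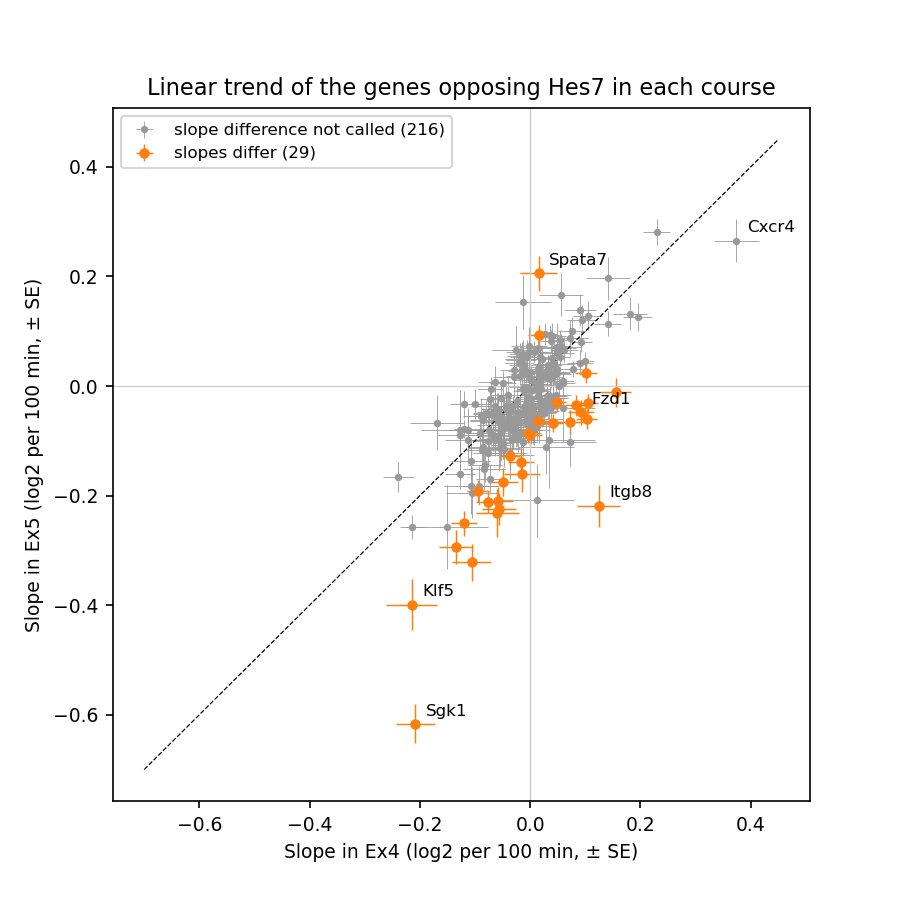
Linear slope in Ex4 (x axis) against Ex5 (y axis) in log2 per 100 min with SE for the 245 genes; the dashed line marks equal slopes. Of the 29 orange genes, whose slopes differed, 27 lie below the line, with Sgk1 lowest, and Spata7 is the higher of the 2 above it.

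At 285 min, the centre of the courses, 113 of the 245 genes differed in level between the courses (adjusted p under 0.05, edgeR), against 55.2% of all genes tested. Of these 51 were higher in Ex5 and 62 lower, where 27% of all genes tested were higher and 28.2% lower. A difference of at least 0.2 log2 was reached by 19 of the 113, a count made for the members alone. With the GC correction 80 were higher and 41 lower, with 34.9% and 23.3% over all genes tested, so the split carries no direction. Ripk4, a kinase of epidermal differentiation, ran from 14.9 to 22.2 CPM in Ex4 (median 17.9) and from 6.48 to 13.8 CPM in Ex5 (median 9.61), with no overlap, a difference of -0.82 ± 0.044 log2 (SE, adjusted p = 1.31e-18, edgeR). Nicn1, a subunit of a tubulin-modifying enzyme, ran from 13.8 to 17.4 and from 9.61 to 13.2 CPM, again without overlap (-0.41 ± 0.033). The small GTPase gene Arl4a (-0.47 ± 0.063) and Tmem184c (-0.38 ± 0.036) were lower in Ex5 with overlapping ranges.

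Rsl1, a KRAB zinc finger gene, was higher in Ex5, with 9.07 to 16.6 CPM (median 11.5) against 6.67 to 11.0 CPM (median 7.47) in Ex4 (0.59 ± 0.064, adjusted p = 3.7e-10, edgeR); its family has near copies. Myadm, a membrane protein, was higher by 0.46 ± 0.029, Asns by 0.35 ± 0.022 and Pex2, a peroxisome biogenesis factor, by 0.28 ± 0.027 log2, with ranges that overlapped in each case. Among the signalling genes Tgif1 (-0.22 ± 0.018) and Fgf4 (-0.19 ± 0.029) were lower in Ex5 and Fzd1 (0.10 ± 0.025) was higher, while Cxcr4 (-0.0051 ± 0.042) was not called. The 2 courses are 1 series of dishes each, so the course and any batch of culture or library cannot be told apart. In 66 of the 245 genes (26.9%) none of the 3 tests was called, against 20.7% of all genes tested.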

How the data were processed

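Polyadenylated RNA of 32 dishes was analysed from the deposited table of raw read counts per gene symbol. Per the labels' protocols, libraries were made from 200 ng of total RNA with a stranded mRNA kit. The submitters' processing notes name bcl2fastq 2.17.1.14, cutadapt 1.14, HISAT2 2.1.0, HTSeq 0.6.1 and the build mm10; the annotation used for counting is not given in the sources used here. Columns were matched to samples by their descriptions.

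The members, gene lists and tests were chosen with earlier results of these data known. CPM used column totals. Trends, slope differences and levels were fitted to the counts with edgeR 4.0.16 (quasi-likelihood, TMM factors, R 4.3.3): an intercept and slope per course (time zero at 285 min) plus a cosine and a sine of the Hes7 phase, with a period of 136 min, common to both courses. P-values were adjusted (Benjamini-Hochberg) over 11772 genes. The script was tested on simulated data. With 1 dish per time point, p-values measure scatter around the fitted curves. Promoters are RefSeq entries.

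Genes were named by rule: the 12 most negative mean r (passing over gene models), list members (1 is not reported here), the 6 largest ratios, and the largest called slopes, slope differences and level differences, up to 4 each way. The complexes, Cited2 and Rnd3 were added after their values were seen. Alternatives covered scaling, pseudocount, filters, time model, DESeq2 1.42.0, limma 3.58.1, and each library left out.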

Additional observations from a re-analysis of the deposited data

Results flagged for a closer look

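The genes below with called slope differences between the courses (Ex5 minus Ex4, in log2 per 100 min) are given for a closer look because the difference itself passed the test (edgeR, adjusted p under 0.05). The difference was -0.41 ± 0.048 (SE) for Sgk1, -0.34 ± 0.053 for Itgb8, -0.22 ± 0.047 for 2700062C07Rik and -0.18 ± 0.063 for Klf5. It was 0.19 ± 0.045 for Spata7 and 0.0785 ± 0.026 for Tubgcp5. Among the listed genes and those of most negative r it was -0.17 ± 0.037 for Flrt3, -0.14 ± 0.033 for Fzd1 and -0.13 ± 0.028 for Asns. Sgk1, 2700062C07Rik and Klf5 had negative slopes in both courses, steeper in Ex5, and Itgb8 had a positive slope in Ex4 and a negative one in Ex5.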

How the results depend on the processing

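The number of genes meeting the rule was 160 with a quadratic time trend, 117 with a Spearman correlation, 66 at a limit of -0.6 and 631 at -0.4. It was 93 without the Ex4 libraries at time points 1 and 16 and 86 with the GC correction as well, both chosen after seeing the data. Leaving out 1 library gave 109 to 322 genes, and 109, of which 101 are among the 245, was the value without Ex4 time point 1. The number of members called ranged over these omissions from 109 to 133 for trend, 24 to 43 for slope difference (43 without Ex4 time point 1) and 108 to 117 for level. The trend was called for 57 members in Ex4 alone. DESeq2 called 121, 33 and 117 members. The mean peak time after Hes7 was 65.5 min with the fitted period, 55.6 min with a period of 120 min and 74.6 min with 150 min. As a share of the cycle these are 48.1%, 46.4% and 49.7%. Of the members called for trend, 2 had the opposite sign with the GC correction (among them Nop58, 0.0061) and 2 in Ex5 alone (among them Flrt3, -0.017). For the slope and level differences 0 called members reversed. The slope difference of Klf5 lost its call without a filter on low counts (adjusted p = 0.0603, edgeR), without cosine and sine terms (0.105), without Ex4 time points 1 and 16 (0.0528) and in 10 of the runs that left out 1 library (up to 0.109); Tubgcp5 lost its call under the same 3 settings (0.0533, 0.0808 and 0.0658), with the GC correction (0.0620) and in 4 such runs. The causes were not tested.

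The time point numbers do not pair the libraries: deviations of same-numbered libraries had an r over 0.1 in 4 of 16 pairs (range -0.20 to 0.17), and 0 Ex4 libraries matched their own number best. With the time point number as a replicate block 28 members were called for slope difference and 113 for level; the block leaves no fit for the trend. With ratios mostly under 1.1 and 1 library per time point, single genes near the limit are the least certain.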
